A study of Mus musculus with 54 samples.

Results

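Microglia sorted out of a 60 min co-culture as acceptors were compared with untreated microglia. The members are the 4 libraries whose titles name acceptors at 60 min and the 6 libraries titled as untreated controls, out of 54 libraries in the series. Untreated libraries that carry the same replicate number (numbers 2 and 4) were summed, which left 4 untreated units, and each acceptor library was paired with the untreated unit of its number. The replicate number is called the experiment below, for short. The titles give the number only, without saying what it stands for, and numbers 3 and 4 carry the same passage label.

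All groups were primary microglia of C57BL/6 mice, prepared from neonatal brains, grown for 7 to 10 days over astrocytes and detached by shaking. A culture flask pooled 2 brains. Acceptors were not themselves treated with alpha-synuclein: they were stained for 15 min with CellTracer Violet and mixed for 60 min with donor microglia, which had taken up 1 µM Atto-488 labelled alpha-synuclein over 14 h, and both populations were then separated by flow cytometry. Untreated cells received neither alpha-synuclein nor a partner population. The sources used here do not state whether untreated cells were dyed or sorted, so co-culture, dye and sorting cannot be told apart in this comparison. Acceptors at 0 min (3 libraries), 30 min (4) and 150 min (4) and donors at 60 min (3) serve as reference points below.

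Microglia are the resident macrophages of the brain. They take up aggregated alpha-synuclein, the protein that accumulates in Parkinson's disease, and can hand it to neighbouring microglia through contacts and thin membrane bridges, so an acceptor is a cell that receives cargo. Autophagy encloses cytoplasmic material in a double membrane and delivers it to lysosomes; its receptors, such as Sqstm1, bind ubiquitylated cargo and the Atg8 family proteins on that membrane. Immediate early genes are transcription factors and regulators whose RNA appears within minutes of a stimulus, without new protein synthesis.

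The 4 acceptor libraries held 11590702 to 13518384 counts and the 4 untreated units 9407503 to 27369511, so that 3 counts correspond to 0.222 to 0.259 CPM (counts scaled to a common library total, as edgeR's cpm gives them) in acceptors and 0.110 to 0.319 CPM in untreated cells. Intervals and floors of this kind cover counting error only. The ribosomal RNA gene Rn45s took 22.1% and 21.1% of counts in the acceptor library and the untreated unit of experiment 4, against 4.64% to 8.33% in the other experiments, and the libraries of experiment 4 have facility numbers of their own. The summed CPM of 7 microglial markers (Tmem119, P2ry12, Cx3cr1, Csf1r, Aif1, Itgam, Sall1) was 1510.3 to 2817 in acceptors and 1749 to 2963 in untreated cells, and none of the 7 passed the test between them.

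Against untreated cells of the same experiments, acceptors at 60 min had more RNA of the chemokine receptor Cxcr4 and of autophagy genes. Some immediate early genes and a set of inflammatory mediators were also higher. DNA replication genes and some genes that mark oligodendrocytes were lower. Of 13169 genes tested with the experiment as a term of the model, 527 were called at an adjusted p under 0.05 (edgeR's quasi-likelihood test with Benjamini-Hochberg adjustment), which is 4% of the genes tested. Of these, 272 (2.07% of the genes tested) were lower in acceptors and the others (1.94%) higher. Changes past 2-fold were found in 53 of the higher and 83 of the lower genes. The direction was the same in all 4 pairs for all except 31 of the higher and 24 of the lower genes, where among all genes tested 11.8% were higher and 13.7% lower in all 4 pairs. Acceptor and untreated values did not overlap for 107 of the higher and 88 of the lower genes; over all genes tested this held for 4.15%. In bulk RNA, fewer cells of a type and less RNA per cell cannot be told apart.

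The count depended strongly on the experiment term. Without it 9 genes (0.0683%) were called, 7 higher and 2 lower, and 1004 genes had an unadjusted p under 0.05 against 2557 with it. Biological variation between libraries, as edgeR's common coefficient, was 21% with the experiment term and 38.1% without. Calls between acceptors and untreated cells named below passed the test with the experiment term, and all except those 9 genes did not pass without it. Leaving out experiment 1 or 3 left 142 and 113 genes called.

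**Figure D1:**
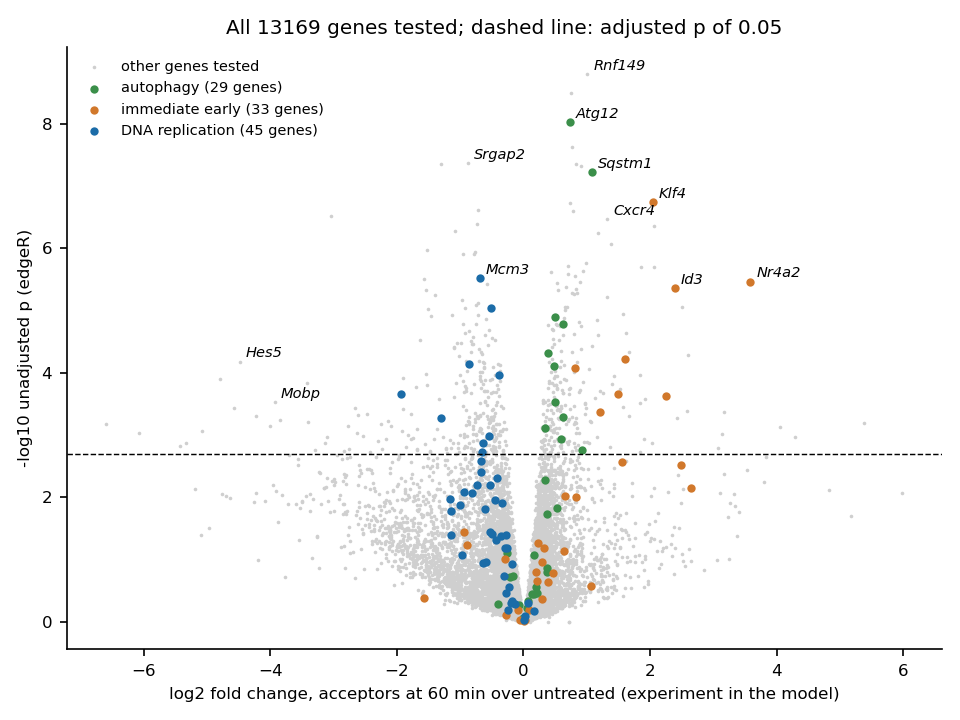
Each point is 1 of the 13169 genes tested: the horizontal axis is the log2 fold change of acceptors at 60 min over untreated cells, the vertical axis -log10 of the unadjusted p. Called autophagy and immediate early genes lie to the right of 0 and called DNA replication genes to its left.

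The 9 genes called in both fits were Cxcr4, Skil, Klf4, Csf2rb, Atg12, Atg2a and Fbxl20, which rose, and Srgap2 and Epb41, which fell. In a fit of these 2 groups alone Skil and Epb41 were no longer called (adjusted p = 0.063 and 0.059 by edgeR), and the other 7 were. Cxcr4, the receptor for the chemokine Cxcl12, stood at 184, 152, 145 and 227 CPM in the acceptors of experiments 1 to 4 and at 67.5, 93.5, 47.8 and 73.5 CPM in untreated cells. All 4 acceptor libraries lay above all 4 untreated units. Its log2 fold change was 1.33 (SE 0.22; adjusted p = 0.00030 by edgeR, 0.0069 without the experiment term). The gene lies at chr1:128588199-128592293 on the minus strand of GRCm38 in the GENCODE M21 annotation, where Skil is at chr3:31095058-31122577, Klf4 at chr4:55527143-55532466, Csf2rb at chr15:78325752-78353847, Atg2a at chr19:6241668-6262335, Fbxl20 at chr11:98082556-98150403, Srgap2 at chr1:131285251-131527352 and Epb41 at chr4:131923413-132075321, all protein coding. The deposited counts are 1 value for each gene symbol and do not resolve exons or introns.

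Skil encodes SnoN, a repressor of the SMAD transcription factors that act below TGF-beta receptors. Its level was 81.8, 65.2, 99.5 and 106 CPM in acceptors and 22.8, 60.4, 39.5 and 30.3 CPM in untreated cells (log2 fold change 1.18, SE 0.20; adjusted p = 0.00039 by edgeR, 0.020 without the experiment term). The groups did not overlap, although experiment 2 gave a difference of only 0.11 on the log2 scale. Csf2rb, the signalling chain shared by the receptors for GM-CSF, interleukin 3 and interleukin 5, was at 276, 199, 244.5 and 338 CPM in acceptors and 135, 139.6, 136 and 109 CPM in untreated cells (log2 fold change 0.99, SE 0.18; adjusted p = 0.00091 by edgeR). Every acceptor library lay above every untreated unit. Fbxl20, the substrate receptor of a ubiquitin ligase, rose from 19.6 ± 1.68 to 33.7 ± 7.04 CPM (SD, n = 4 each; log2 fold change 0.77, SE 0.15).

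Srgap2, which shapes membrane protrusions and turns off Rac, fell from 97.5, 138, 109 and 82.2 CPM in untreated cells to 54.1, 69.6, 52.2 and 55.0 CPM in acceptors (log2 fold change -0.87, SE 0.13; adjusted p = 7.8e-05 by edgeR, 0.027 without the experiment term). Epb41, the protein 4.1 that joins spectrin and actin to the membrane, fell from 172 ± 40.2 to 101 ± 9.67 CPM (SD, n = 4 each; log2 fold change -0.76, SE 0.13). Experiment 2 again gave the smallest difference for Epb41, -0.13 on the log2 scale, and the groups did not overlap for either gene.

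**Figure D2:**
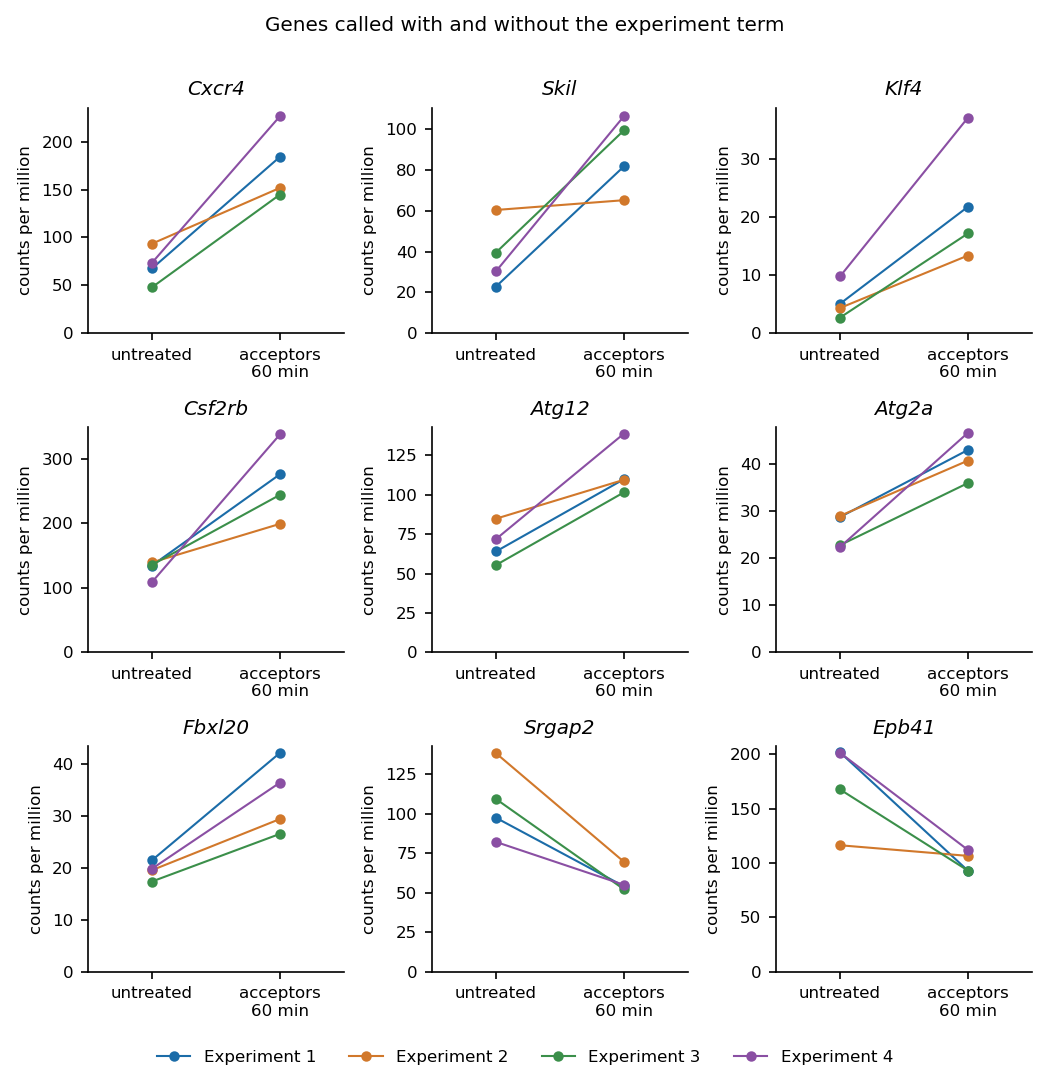
CPM of the 9 genes called with and without the experiment term, in untreated cells and acceptors at 60 min; each colour and line is 1 experiment. All lines of the 7 rising genes go up and those of Srgap2 and Epb41 go down.

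The genes with the smallest p-values in the fit with the experiment term, chosen after their values were seen, belong to varied functions. Rnf149, a membrane-bound ubiquitin ligase, was at 1049, 788, 1239 and 1655 CPM in acceptors and 497, 490.2, 639 and 678 CPM in untreated cells, with no overlap (log2 fold change 1.00, SE 0.13; adjusted p = 2.1e-05 by edgeR). Oga, the enzyme that takes O-linked N-acetylglucosamine off proteins, rose by 0.76 (SE 0.10), the tetraspan membrane protein gene Lhfpl2 by 0.77 (SE 0.11), the ceramide phosphoethanolamine synthase gene Samd8 by 0.83 (SE 0.12), and Mdm2, the ubiquitin ligase of p53, by 0.91 (SE 0.14), all as log2 fold changes. Dok2, an adaptor that dampens signalling from tyrosine kinases, fell by 1.30 (SE 0.19) on the log2 scale, from 85.6 ± 24.1 to 35.9 ± 13.7 CPM (SD, n = 4 each). None of these 6 was called without the experiment term, where the adjusted p of Rnf149 was 0.13 and that of Lhfpl2 0.071.

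Autophagy genes were the list with the most members called. Of 29 tested, 11 rose and none fell (37.9% called, against 4% of all genes), the median log2 fold change was 0.35 against -0.03 over all genes tested, and 19 (65.5%, against 11.8% of all genes) were higher in all 4 pairs. The list's median was 0.28, 0.31, 0.36 and 0.42 in experiments 1 to 4. Without the experiment term only Atg12 of the list was called, at a median of 0.36. Leaving out experiments 1 to 4 in turn left 3, 7, 4 and 6 members called, with medians of 0.35, 0.35, 0.37 and 0.30.

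Of the cargo receptors, Sqstm1 (p62) was at 973, 872, 1512 and 1438 CPM in acceptors and 507, 698, 463 and 525 CPM in untreated cells, without overlap (log2 fold change 1.08, SE 0.16; adjusted p = 8.6e-05 by edgeR, 0.074 without the experiment term). Tax1bp1, which binds ubiquitylated aggregates, rose by 0.50 (SE 0.10) and Nbr1, a relative of Sqstm1, by 0.35 (SE 0.10) on the log2 scale. Bnip3l, a receptor for mitochondria, rose by 0.48 (SE 0.11). Sqstm1 overlaps Mrnip on the other strand, and whether counting used strand is not given in the sources used here.

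Of the machinery that builds the membrane, Atg12, the ubiquitin-like protein that is joined to Atg5, was at 109.8, 109, 101 and 139 CPM in acceptors and 64.0, 84.7, 55.4 and 71.8 CPM in untreated cells (log2 fold change 0.73, SE 0.10; adjusted p = 4.1e-05 by edgeR, 0.020 without the experiment term). The lowest acceptor library lay above the highest untreated unit. The Atg8 family members Gabarapl1 and Map1lc3b, which are attached to the membrane and hold the receptors, rose by 0.63 (SE 0.13) and 0.39 (SE 0.09). Map1lc3b was at 322, 299, 284 and 311 CPM in acceptors and 264.1, 241.5, 219 and 205 CPM in untreated cells, and its groups did not overlap. Atg13, a subunit of the initiating kinase complex, rose by 0.49 (SE 0.13), the lipid scramblase gene Atg9a by 0.59 (SE 0.17), and the phosphoinositide-binding Wipi1 and Wipi2 by 0.92 (SE 0.28) and 0.62 (SE 0.16). Atg2a, which carries lipid to the growing membrane and is not on the list, was at 42.9, 40.6, 35.9 and 46.5 CPM in acceptors and 28.7, 28.9, 22.7 and 22.3 CPM in untreated cells (log2 fold change 0.70, SE 0.13; adjusted p = 0.0011 by edgeR, 0.027 without the experiment term).

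Of 39 lysosomal genes 3 were called (7.69%, against 4% of all genes). Those that rose were the protease gene Ctsl (log2 fold change 0.54, SE 0.13) and the alpha-galactosidase gene Gla (0.50, SE 0.12), and the thioesterase gene Ppt1 fell by 0.32 (SE 0.08). The list's median was 0.08. Of 29 NRF2 and antioxidant genes 3 rose and none fell (10.3%): Sqstm1, which is on both lists, the oxidative stress inhibitor of growth Osgin1 (18.0, 29.5, 27.9 and 31.6 CPM in acceptors against 9.69, 13.1, 7.63 and 10.4 CPM in untreated cells; log2 fold change 1.38, SE 0.24) and the cystine transporter gene Slc7a11. Slc7a11 was higher in 3 of 4 pairs, at 8.56, 0.973, 37.8 and 29.7 CPM in acceptors and 2.93, 1.70, 6.34 and 5.47 CPM in untreated cells.

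Of 33 immediate early genes tested, 8 were called higher (24.2%, against 4% of all genes) and none lower. In all 4 pairs 5 members (15.2%) were higher, near the 11.8% of all genes. Another 2 (6.06%, against 13.7%) were lower in all 4. The list's median log2 fold change was 0.39, with 0.23, -0.13, 0.71 and 0.98 in experiments 1 to 4. The experiments thus differed more for this list than for autophagy. Klf4, a zinc finger transcription factor, was the member called without the experiment term too. It was at 21.8, 13.4, 17.2 and 37.2 CPM in acceptors and 5.05, 4.32, 2.66 and 9.76 CPM in untreated cells, with no overlap (log2 fold change 2.04, SE 0.33; adjusted p = 0.00022 by edgeR, 0.036 without the experiment term). Nr4a2, the orphan nuclear receptor Nurr1, ranged from 0.973 CPM in the acceptors of experiment 2 over 3.40 and 19.6 CPM in experiments 1 and 3 to 90.1 CPM in experiment 4, while untreated cells were between 0.698 and 1.96 CPM (log2 fold change 3.58, SE 0.67; adjusted p = 0.0013 by edgeR). The acceptors of experiment 2 thus lay within the untreated range.

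Id3, an inhibitor of basic helix-loop-helix factors, was at 36.0, 23.1, 53.97 and 93.3 CPM in acceptors and 1.82, 3.58, 20.1 and 15.4 CPM in untreated cells, with no overlap (log2 fold change 2.39, SE 0.45). Ier3, a regulator of cell survival, was at 51.0, 31.2, 61.9 and 235.8 CPM in acceptors and 20.3, 22.8, 16.7 and 17.3 CPM in untreated cells (log2 fold change 1.60, SE 0.36). Junb and Fosb, which pair in the AP-1 factor, rose by 1.21 (SE 0.31) and 2.25 (SE 0.56) on the log2 scale, Csrnp1, a nuclear regulator, by 1.49 (SE 0.37) and Ppp1r15a, which returns phosphorylated eIF2 alpha to its active form, by 0.82 (SE 0.19). Junb, Fosb and Csrnp1 were higher in 3 of 4 pairs, experiment 2 being the exception. Fos itself was at 227 ± 54.1 CPM in acceptors and 151 ± 65.2 CPM in untreated cells (SD, n = 4 each) and was not called (adjusted p = 0.31 by edgeR). Without experiments 1 to 4 in turn the list had 7, 10, 4 and 4 members called, with medians of 0.45, 0.89, 0.33 and 0.20. Junb and Csrnp1 each overlap another gene in the annotation, Prdx2 and Cx3cr1.

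Promoter windows are shown for 3 of these genes because called immediate early genes share a short element in them. The windows are RefSeq's on GRCm38.p6 and span 250 bases before to 50 after a gene start. The cAMP response element half-site, TGACG on either strand, was in 10 of 11 windows of the 8 called genes (90.9%), all except the window of Ier3, against 30.2% of the 13284 windows of genes tested, 20.8% of all 32851 windows and 36.2% of the windows of genes called higher. Csrnp1 has 4 of the 11 windows, all with the half-site. Counted by gene, 7 of 8 (87.5%) had it in a window, against 34.9% of genes tested and 42% of genes called higher. The AP-1 site TGANTCA was in 1 of the 11 windows (9.09%, against 5.28% for genes tested) and the E-box core CACGTG in 1 (9.09%, against 9.82%). The share among immediate early genes that were not called was not counted. A match describes the letters and does not show a bound site. The windows of Klf4 (chr4:55532426-55532725), Nr4a2 (chr2:57123954-57124253) and Fosb (chr7:19309996-19310295), all on the minus strand, read 5′ to 3′ as follows, with capitals marking the half-site in either orientation and, in Klf4, also the E-box core.
Klf4: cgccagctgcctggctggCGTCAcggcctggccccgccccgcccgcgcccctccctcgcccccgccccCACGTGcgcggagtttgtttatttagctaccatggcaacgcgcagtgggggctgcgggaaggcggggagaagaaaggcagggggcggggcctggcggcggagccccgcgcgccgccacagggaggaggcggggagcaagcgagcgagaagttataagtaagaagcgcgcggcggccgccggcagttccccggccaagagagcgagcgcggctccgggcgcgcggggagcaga
Nr4a2: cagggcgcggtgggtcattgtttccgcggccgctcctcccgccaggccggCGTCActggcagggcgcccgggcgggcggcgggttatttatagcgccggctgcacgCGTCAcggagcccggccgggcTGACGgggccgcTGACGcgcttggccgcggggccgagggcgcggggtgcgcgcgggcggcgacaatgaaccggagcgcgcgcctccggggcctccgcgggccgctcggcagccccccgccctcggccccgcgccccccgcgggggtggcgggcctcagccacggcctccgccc
Fosb: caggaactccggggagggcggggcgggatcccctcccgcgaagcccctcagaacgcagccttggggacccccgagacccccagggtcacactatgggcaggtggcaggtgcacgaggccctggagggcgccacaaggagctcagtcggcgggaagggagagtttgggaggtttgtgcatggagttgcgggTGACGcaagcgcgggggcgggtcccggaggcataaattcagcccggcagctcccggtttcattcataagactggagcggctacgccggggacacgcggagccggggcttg

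The half-site starts 60 bases before the start of Fosb, Klf4 has 1 near the 5′ end of its window, and Nr4a2 has 4, from 200 to 111 bases before its start.

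Inflammatory mediators differed most in experiment 4. Of 36 cytokine, chemokine and related genes induced by NF-kappaB, 6 rose and none fell (16.7%), and the list's median was 0.31, -0.03, 0.11 and 1.54 in experiments 1 to 4. The chemokine Cxcl1 was at 12.9, 7.46, 8.11 and 20.2 CPM in acceptors and 1.51, 1.35, 3.94 and 0.867 CPM in untreated cells (log2 fold change 2.60, SE 0.57; adjusted p = 0.0061 by edgeR), and Cxcl2, which attracts neutrophils as Cxcl1 does, at 164, 153, 178 and 252.6 CPM against 42.3, 61.5, 82.5 and 10.1 CPM (log2 fold change 1.67, SE 0.44). Neither gene's groups overlapped. Il1b, the interleukin 1 beta gene, was at 51.0, 78.4, 231.4 and 298 CPM in acceptors and 14.0, 65.3, 13.6 and 23.3 CPM in untreated cells (log2 fold change 2.03, SE 0.59), and the acceptors of experiment 1 lay within the untreated range. Ptgs2, the inducible cyclooxygenase, was at 15.4, 12.8, 17.2 and 74.1 CPM in acceptors and 3.33, 4.93, 3.17 and 3.204 CPM in untreated cells (log2 fold change 2.43, SE 0.65). The other 2 calls of the list, Lcn2 and Il6, rested on experiment 4: Il6 had no counts in the acceptors of experiments 1 to 3 and 1.76 CPM in experiment 4, and Lcn2 was at 15.4 CPM in experiment 4 and at 0.521 CPM or less in the others. Without experiment 1 no member of the list was called, without experiment 3 there was 1, and without experiment 2 there were 3 (Il1b, Il6 and Lcn2). Without experiment 4 the list had 5 members called higher (Cxcl1, Cxcl2, Il1b, Ptgs2, Sod2) and 3 called lower, the monocyte-attracting chemokines Ccl2, Ccl7 and Ccl12 with log2 fold changes of -1.30 to -1.69. With experiment 4 those 3 were not called, at log2 fold changes of -1.19, -1.49 and -1.53.

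Suppressors of cytokine signalling were among the largest rises. Socs3 was at 14.1, 8.11, 19.0 and 195 CPM in acceptors and 2.83, 3.31, 6.43 and 3.51 CPM in untreated cells (log2 fold change 2.50, SE 0.49; adjusted p = 0.0021 by edgeR), with no overlap. Cish was at 0.212, 0.487, 3.80 and 5.46 CPM in acceptors and 0.377 CPM or less in untreated cells (log2 fold change 3.14, SE 0.88). The others of the 12 largest rises not named above were Mybpc3, known as a heart muscle protein (5.90 ± 1.45 against 1.52 ± 0.788 CPM; log2 fold change 2.07, SE 0.34), the transglutaminase gene Tgm2 (23.1 ± 9.94 against 5.90 ± 4.24 CPM; 2.06, SE 0.37), the prostaglandin E2 receptor gene Ptger2 (6.96 ± 1.98 against 2.33 ± 1.14 CPM; 1.93, SE 0.48) and Clec4e, the receptor Mincle (73.99 ± 68.6 against 17.3 ± 15.0 CPM; 1.91, SE 0.55; SD, n = 4 each).

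Smaller signalling lists had 1 to 4 calls each, to be read against the 4% of all genes. In the TGF-beta and SMAD list (21.1% called) 3 of 19 rose, Skil, the corepressor gene Tgif1 (log2 fold change 0.67, SE 0.16) and the type I receptor gene Tgfbr1 (0.77, SE 0.20), and 1 fell, the type II receptor gene Tgfbr2 (-0.44, SE 0.12). Of 14 glucocorticoid-responsive genes 4 rose (28.6%): Sgk1, Cebpb, Dusp1 and Mt2, with log2 fold changes between 0.74 and 1.25. Of these, Sgk1 and Dusp1 were lower in experiment 2. Without experiment 3 no member of that list was called. Of 14 FOXO factors and targets 4 were called (28.6%). Irs2, an adaptor of the insulin receptor, and the ubiquitin ligase gene Fbxo32 rose by 1.403 (SE 0.34) and 1.18 (SE 0.25) on the log2 scale. Txnip, which binds thioredoxin, and Sesn1 fell by 1.08 (SE 0.18) and 1.11 (SE 0.32). Txnip was at 144, 174, 50.0 and 61.6 CPM in acceptors and 239.6, 307, 147 and 156 CPM in untreated cells, lower in every pair with overlapping groups. Of 18 MAP kinase feedback genes (16.7% called) Dusp1 rose and the phosphatase gene Dusp7 and the inhibitor gene Spred1 fell. Of 18 chemoattractant receptors (11.1% called) Cxcr4 rose and Cmklr1, the chemerin receptor, fell by 1.03 (SE 0.30). Of 22 NF-kappaB regulators only the RNase gene Zc3h12a was called (4.55%), higher in 3 of 4 pairs. The median of that list was 0.32. In all 4 pairs 9 of its members (40.9%, against 11.8% of all genes) were higher and 1 was lower. Among 21 mRNA decay genes (9.52% called) Zc3h12a and Btg1 rose.

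DNA replication genes were lower. Of 45 tested, 9 fell and none rose (20% called), with a median log2 fold change of -0.52 and 16 members (35.6%, against 13.7% of all genes) lower in all 4 pairs. The list's median was -0.67, -0.59 and -0.65 in experiments 1, 3 and 4 and 0.07 in experiment 2. Mcm3, a subunit of the replicative helicase, was at 43.1, 39.1, 38.5 and 41.3 CPM in acceptors and 91.8, 37.2, 66.1 and 76.2 CPM in untreated cells (log2 fold change -0.69, SE 0.13; adjusted p = 0.0012 by edgeR, 0.20 without the experiment term). The acceptor values were nearly equal and the untreated unit of experiment 2 lay at their level. The helicase subunit genes Mcm2, Mcm6 and Mcm7 fell by 0.86 (SE 0.19), 0.39 (SE 0.09) and 0.54 (SE 0.15) on the log2 scale.

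Rfc2, which helps to load the sliding clamp, was at 25.3, 23.8, 25.6 and 16.7 CPM in acceptors and 33.9, 33.4, 34.0 and 28.5 CPM in untreated cells, and its groups did not overlap (log2 fold change -0.52, SE 0.10). The polymerase delta gene Pold1, the ribonucleotide reductase gene Rrm1, the methylation maintenance factor gene Uhrf1 and Cdca7 fell by 0.64 (SE 0.19), 0.65 (SE 0.19), 1.31 (SE 0.35) and 1.93 (SE 0.48). None of the 9 was called without the experiment term, and 1, 12, 3 and 6 members were called without experiments 1 to 4 in turn. Of 40 mitosis genes, Tpx2, a spindle assembly factor, fell by 0.68 (SE 0.16) and the others were not called (2.5% called, against 4% of all genes). The list median was -0.69, and 0.13 in experiment 2. In all 4 pairs 13 mitosis genes (32.5%, against 13.7% of all genes) were lower and none was higher.

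Windows of 2 replication genes are shown for the element of E2F, the factor known to drive S phase genes. TTTCCCGC, on either strand, was in 4 of 10 windows of the called replication genes (40%), against 1.98% of windows of genes tested, 1.07% of all windows and 3.06% of windows of genes called lower; the 4 belong to 4 different genes. A second form, TTTGGCGC, was in 2 of the 10 (20%, against 0.926% of windows of genes tested). The shares among replication genes that were not called were not counted. Capitals in the windows of Mcm3 (chr1:20820263-20820562) and Mcm6 (chr1:128359656-128359955), both on the minus strand of GRCm38.p6, mark either form in either orientation.
Mcm3: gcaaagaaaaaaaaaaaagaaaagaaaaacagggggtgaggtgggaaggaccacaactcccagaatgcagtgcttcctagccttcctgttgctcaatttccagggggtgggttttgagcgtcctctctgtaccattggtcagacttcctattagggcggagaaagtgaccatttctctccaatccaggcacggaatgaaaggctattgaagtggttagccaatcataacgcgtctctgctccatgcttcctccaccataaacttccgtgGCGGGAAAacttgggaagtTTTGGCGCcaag
Mcm6: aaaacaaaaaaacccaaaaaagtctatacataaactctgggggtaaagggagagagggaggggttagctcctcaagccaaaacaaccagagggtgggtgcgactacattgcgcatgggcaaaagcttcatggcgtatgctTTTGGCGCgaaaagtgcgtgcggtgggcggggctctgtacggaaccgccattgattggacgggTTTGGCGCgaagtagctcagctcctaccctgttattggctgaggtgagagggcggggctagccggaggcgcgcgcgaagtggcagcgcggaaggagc

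Interferon-stimulated genes had a median log2 fold change of -0.72, and 3 of 41 fell (7.32%, near the 4% of all genes): the transcription factor gene Stat2 by 0.93 (SE 0.27), the ubiquitin ligase gene Trim30a by 0.80 (SE 0.24) and Slfn5, of the schlafen family, by 0.95 (SE 0.27). In all 4 pairs 22 members (53.7%) were lower, against 13.7% of all genes. The largest difference came from experiment 2, with a list median of -1.26 against -0.17, -0.25 and -0.55 in experiments 1, 3 and 4. Stat2 was at 59.6, 152, 63.2 and 24.8 CPM in acceptors and 81.3, 385, 101 and 58.2 CPM in untreated cells, so both members of experiment 2 stood above the rest. Without experiment 2 the median was -0.37 and 1 member, Slfn5, was called, and none was without experiment 1 or 3. Without experiment 4, 6 were: Stat2, Trim30a, Herc6, Ifih1, Slfn8 and Usp18.

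The remaining lists had 0% to 7.14% of members called, against 4% of all genes. No member was called among 24 cholesterol synthesis, 38 respiratory chain or 20 heat shock genes. Of 33 genes of nanotubes and filopodia, the membrane bridges, the actin genes Actb and Actg1 fell by 0.36 (SE 0.10) and 0.47 (SE 0.14) on the log2 scale and the others were not called. Of 28 homeostatic microglial genes Tgfbr1 rose and the membrane-bending Bin1 fell by 0.46 (SE 0.10); of 28 disease-associated microglial genes Ctsl rose. Of 29 stress response genes Ddit3, the transcription factor CHOP, and Ppp1r15a rose, Ddit3 in 3 of 4 pairs. Of 28 glycolysis and hypoxia genes Vegfa was called (log2 fold change 2.58, SE 0.67), at 2.05, 2.11, 40.6 and 105 CPM in acceptors and 2.22, 2.36, 3.34 and 6.71 CPM in untreated cells, higher in 2 pairs and lower in 2.

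**Figure D3:**
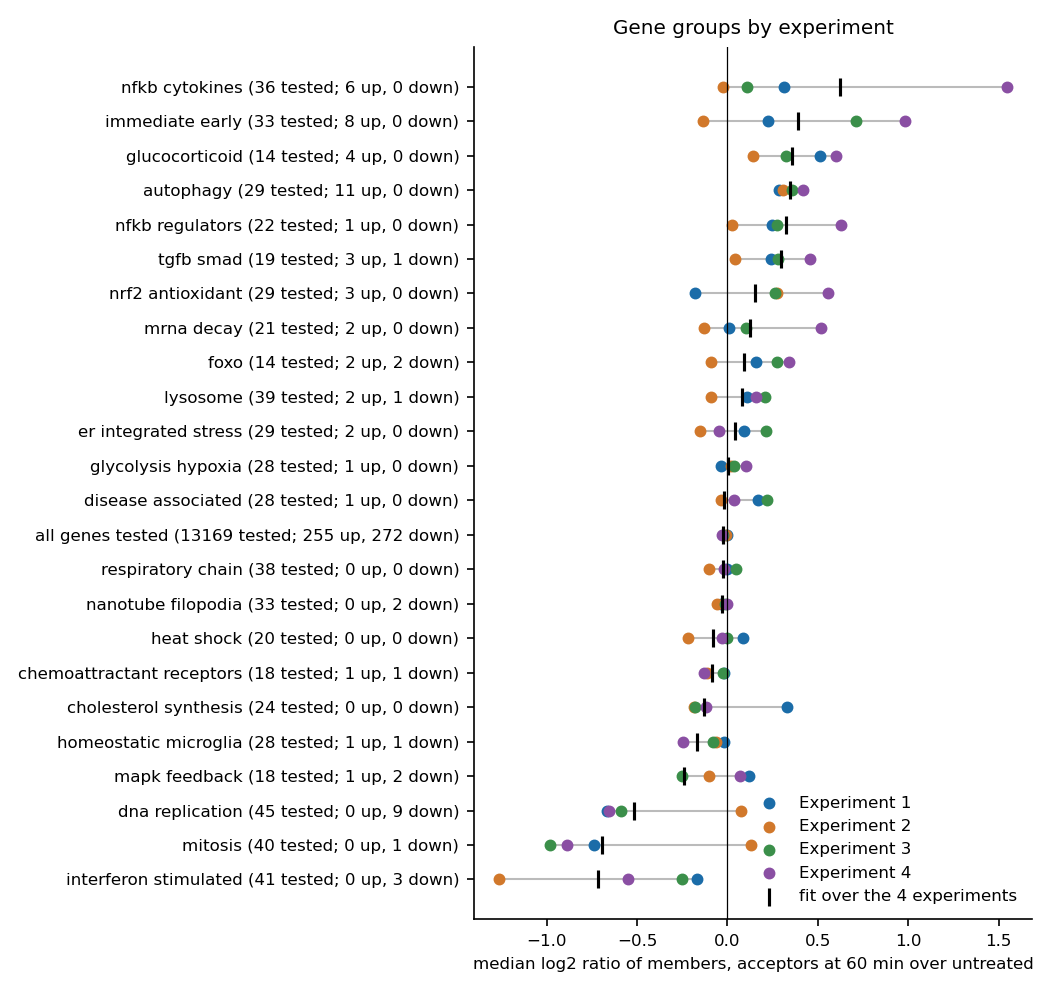
Median log2 ratio of the members of each gene list in each experiment (coloured points) and from the fit over all (black bar); the labels give the genes tested and called. The 4 points lie close together for autophagy and far apart for cytokines, immediate early and interferon-stimulated genes, and experiment 2 is on the other side of 0 for DNA replication and mitosis.

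The genes with the largest falls include some known from other neural cells: Mobp and Cldn11 are myelin genes, Hes5 is a Notch target of neural progenitors and Mlc1 an astrocyte membrane protein gene. Mobp was at 0.142, 0.162, 0.521 and 0 CPM in acceptors and 3.43, 1.09, 9.34 and 0.641 CPM in untreated cells (log2 fold change -3.93, SE 0.99; adjusted p = 0.017 by edgeR, 0.37 without the experiment term), and its groups did not overlap. The 3 lowest acceptor values lie under the level of 3 counts. Hes5 was at 0, 0, 1.04 and 0.185 CPM in acceptors and 0.404, 0.436, 7.46 and 18.7 CPM in untreated cells (log2 fold change -4.48, SE 1.00). Also among the largest falls were Lrrc4b, a synaptic adhesion molecule gene, Ppp1r16b, Fbn2, Pcdhgb5, whose exons lie in a cluster shared with other protocadherin genes, and 2810468N07Rik, which overlaps Sox8 on the other strand; reads of these last 2 cannot be assigned with certainty.

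Of 8 oligodendrocyte markers 4 fell (Mag, Cnp, Olig1, Sox10), where 4% of all genes tested were called. The summed CPM of the 8 was 145, 172, 279 and 126 in acceptors and 182, 261.4, 474 and 247.5 in untreated cells. Mbp, the largest part of the sum, was higher in 2 of 4 pairs and was not called (83.8 against 107 CPM, adjusted p = 0.26 by edgeR). Mog, Olig2 and Pdgfra were not called either and were lower in 4, 3 and 3 pairs. S100b, 1 of 9 astrocyte markers, fell, with sums of 8.99, 11.9, 48.5 and 42.1 CPM in acceptors and 11.7, 20.2, 89.99 and 156 CPM in untreated cells. Map2, 1 of 5 neuronal markers tested, fell, and was lower in 3 of 4 pairs. Its call and that of Sox10 were among those lost with each experiment left out in turn. The sums of 6 neuronal markers, with the untested Snap25, were 0.892 to 12.2 CPM in acceptors and 3.53 to 30.3 CPM in untreated cells. The astrocyte markers Gfap, Aqp4 and Gja1 had 0 to 3 counts in the acceptors of experiments 1 and 2. The untreated cells of those experiments had 0 to 9. In experiment 3 they had 5, 0 and 0 counts in acceptors and 16, 31 and 20 in untreated cells. In experiment 4 acceptors had 27, 35 and 10 counts. The untreated unit of experiment 4, a sum of 2 libraries, had 401, 283 and 97. None of the 3 genes was called, at log2 fold changes of -1.87, -2.99 and -3.02. No marker of endothelial cells, fibroblasts, border macrophages, neutrophils or red cells was called. Acceptors at 0 min had oligodendrocyte sums of 152 to 295 CPM, against 126 to 279 CPM at 60 min, and astrocyte sums of 13.3 to 36.0 CPM, within the range at 60 min. The part of these cells in the other calls was not tested.

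**Figure D4:**
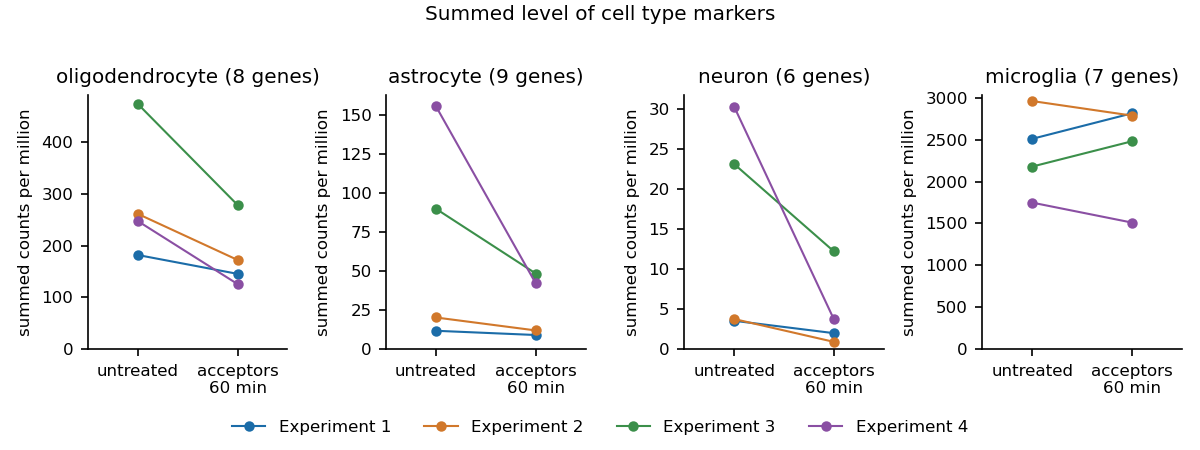
Summed CPM of the markers of 4 cell types in untreated cells and acceptors at 60 min, 1 line for each experiment. The oligodendrocyte, astrocyte and neuron sums are lower in acceptors in every experiment, while the microglial sums are 1510.3 to 2817 CPM in acceptors and 1749 to 2963 CPM in untreated cells.

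Acceptors at 60 min were next set against acceptors at 0 min, which come from experiments 1 to 3 only. No gene was called by edgeR with the experiment term (780 at an unadjusted p under 0.05), none without it (390), and 20 were called by DESeq2. Cxcr4 had a log2 fold change of 1.20 (SE 0.24; adjusted p = 0.094 by edgeR, 0.0045 by DESeq2), from 60.2 to 98.6 CPM at 0 min to 145 to 227 CPM at 60 min, with no overlap. Irs2 (1.71, SE 0.39), Csrnp1 (1.91, SE 0.42), Lhfpl2 (0.54, SE 0.12) and Samd8 (0.59, SE 0.14) also had an adjusted p of 0.094 by edgeR and were called by DESeq2. By contrast with these rises, the median of the autophagy list between 0 and 60 min was 0.05 and that of DNA replication genes -0.04. Immediate early genes had a median of 0.53. These medians also take in experiment 4 at 60 min without a 0 min partner, and medians without it were not computed. Atg12 was at 98.7 ± 4.35 CPM at 0 min (SD, n = 3) and Mcm3 at 39.3 ± 6.11 CPM, next to the 115 ± 16.4 and 40.5 ± 2.11 CPM at 60 min (SD, n = 4).

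No gene was called between 30 and 60 min by edgeR with the experiment term (525 at an unadjusted p under 0.05) or by DESeq2. Between 60 and 150 min 3 genes (0.0228% of those tested) were called: Mnt, a partner of Max that opposes Myc, with a log2 fold change of -0.70, the folliculin gene Flcn with -0.84, and the amidase gene Nit2 with 0.67. None was called without the experiment term or without experiment 1 or 2, and without experiment 4 only Snx30 was. Cxcr4 was at 102 ± 24.7 CPM at 150 min (n = 4) and 66.4 ± 5.61 CPM at 300 min (SD, n = 3), and its log2 fold change from 60 to 150 min was -0.81 (adjusted p = 0.45 by edgeR). Mean Cxcr4 was thus highest at 60 min among the acceptor times, with values that overlapped those of 30 min (116 to 199 CPM).

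Donors at 60 min, the population that had been given alpha-synuclein, come from experiments 1, 3 and 4. Against them 882 genes (6.7%) were called, 477 higher and 405 lower in donors, and 55 without the experiment term. Adgre5, the adhesion receptor CD97, was at 90.4 ± 4.40 CPM in donors (SD, n = 3) and 5.73 ± 1.95 CPM in acceptors (SD, n = 4; log2 fold change 3.95, SE 0.19; adjusted p = 3.9e-19 by edgeR). Acceptors in turn were above the 3.04 ± 0.621 CPM of untreated cells in every pair (log2 fold change 0.91, SE 0.20; adjusted p = 0.0052 by edgeR, 0.19 without the experiment term). The transporter gene Slc13a3 (3.50, SE 0.27), the phosphatase gene Acp5 (3.30, SE 0.42), Tifab (2.37, SE 0.29) and the heme synthesis gene Alas1 (1.03, SE 0.14) were also higher in donors and none of these 4 was called between acceptors and untreated cells. Klf2, a relative of Klf4, was higher in donors by 2.29 (SE 0.36; adjusted p = 6.6e-05 by edgeR), and in acceptors against untreated cells it had a log2 fold change of 0.47 (adjusted p = 0.46).

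Among the genes that rose in acceptors, Klf4 and Sqstm1 were higher again in donors, by 1.10 (SE 0.32; adjusted p = 0.031 by edgeR) and 0.70 (SE 0.17; adjusted p = 0.010), while Atg12 and Gabarapl1 were lower in donors, by log2 fold changes of -0.37 (adjusted p = 0.039) and -0.59 (adjusted p = 0.0078). None of these 4 calls was made without the experiment term (adjusted p of 0.34 to 0.44). For Cxcr4 the log2 fold change between donors and acceptors was -0.27 (SE 0.23; adjusted p = 0.52 by edgeR). The change from 0 to 60 min was compared between acceptors and donors by an interaction term, and no gene was called by edgeR (525 at an unadjusted p under 0.05). Cxcr4 had an interaction of 1.80 on the log2 scale (SE 0.35; adjusted p = 0.079 by edgeR, 0.0024 by DESeq2, where it was the only gene called): it was at 227.99 ± 29.7 CPM in donors at 0 min and 149 ± 37.1 CPM at 60 min (SD, n = 3 each), the opposite order to acceptors. These 2 means are not of the same experiments: donors at 0 min come from experiments 1, 2 and 3, donors at 60 min from experiments 1, 3 and 4.

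**Figure D5:**
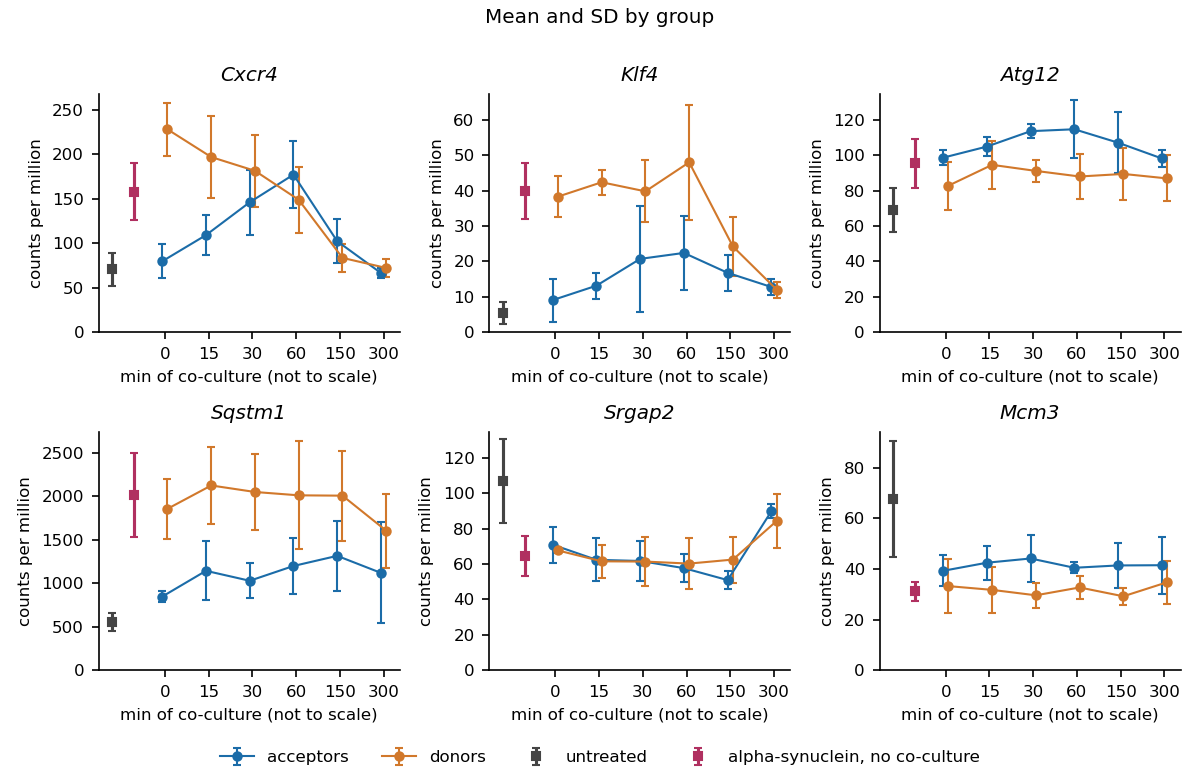
Mean CPM and SD by group for 6 genes over the co-culture times (categories, not to scale), in acceptors and donors, with untreated cells and alpha-synuclein treated cells without co-culture at the left (n = 3 or 4). Cxcr4 in acceptors goes from 79.5 CPM at 0 min to 177 CPM at 60 min and 66.4 CPM at 300 min, while Mcm3 stays between 39.3 and 44.2 CPM at all acceptor times, below the 67.8 CPM of untreated cells.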

How the data were processed

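QuantSeq 3′ FWD libraries, which read transcripts near their 3′ end, were sequenced as single reads, as the labels' protocols state. Per the file headers, the deposited table holds unnormalized counts under gene symbols for the 54 libraries. The submitters' processing notes name STAR, Partek, DESeq2 and mm10, with no versions; the annotation, the counting and the use of strand are not given in the sources used here. The table lists 16632 genes, each with at least 10 counts in all, and library totals were 7807389 to 15537493. Counts were not divided by gene length, and levels are compared between samples and not between genes.

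Same-numbered untreated libraries were summed (chi-square per degree of freedom 12.1 and 10.3 over genes with at least 20 counts, against 24.2 to 288 for other untreated pairs), giving 52 units in 14 groups. They were fitted together in edgeR 4.0.16 (R 4.3.3): TMM, filterByExpr (groups, minimum count 10), 13169 genes kept, quasi-likelihood F test, Benjamini-Hochberg adjustment over all genes tested, calls under 0.05. The main design has the replicate number as a block, because the comparison is paired by it. The replicate numbers come from the titles; deviations from the group means of same-numbered acceptor and untreated units correlated at 0.39, 0.58, 0.59 and 0.52 across genes, so the numbers pair the samples. The labels give passage 3 for experiment 1, 1 for experiment 2 and 2 for experiments 3 and 4. Residual degrees of freedom were 35 with the block and 38 without. Standard errors follow from each fold change and F statistic, and CPM values use TMM-scaled totals. The labels do not say whether libraries of a group came from separate cultures, so p-values measure the spread between these samples, which may be technical.

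Genes were named by rule: among called genes with a mean of at least 1 CPM and 1 direction in all 4 pairs, the 12 largest rises and 10 largest falls; every gene called without the block; up to 3 called members with the smallest p in each list; up to 5 called genes of each other comparison; Adgre5, Cxcr4, Skil, Klf2 and the cell type markers. Some genes are not reported here; they stayed in the fits and were left out of the lists, marker sums and named genes. The genes with the smallest p in the table, the other called list members, the motifs and the windows shown were chosen after their values were seen. The comparison, the gene lists and the markers were chosen with earlier results of these data known. Alternatives were no block, the compared groups alone, untreated libraries kept apart, DESeq2 size factors, no filter, Rn45s left out, each experiment left out, and DESeq2 1.42.0. Of 107 named genes, 105 were matched to GENCODE M21 (GRCm38) by symbol, and promoter windows are RefSeq's (GRCm38.p6).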

Additional observations from a re-analysis of the deposited data

Results flagged for a closer look

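Among 214 groups of 4 checked (107 genes in acceptors at 60 min and in untreated cells, log2 of CPM plus 1), 22 had 1 sample far from the other 3 by Dixon's criterion at the 95% level (gap to the nearest sample over the group's range); chance flags about 1 group in 20.

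In the acceptors of experiment 4, 8 genes stood apart. Btg1 was at 672 CPM against 304 to 334 in the other experiments, Dusp1 at 381 against 210.2 to 215, Ppp1r15a at 68.4 against 33.8 to 36.0, Ptgs2 at 74.1 against 12.8 to 17.2, Lcn2 at 15.4 against 0.0811 to 0.521 and Il6 at 1.76 against 0. Atg9a, at 17.8 against 25.8 to 26.8, and Dusp7, at 30.7 against 42.7 to 45.3, were low there. In the untreated cells of experiment 4, Cebpb (41.8 against 78.4 to 88.9), Csf2rb (109 against 135 to 139.6) and Rfc2 (28.5 against 33.4 to 34.0) were low, and Tax1bp1 (157 against 112 to 118) and Il6 (0.0754 against 0) high.

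In the acceptors of experiment 3, 5 genes stood high: the oligodendrocyte factor Sox10 (6.85 CPM against 0.0925 to 0.425), then Lrrc4b (4.47 against 0 to 0.0925), Fbn2 (1.56 against 0 to 0.142) and 2810468N07Rik (1.56 against 0), which are among the largest falls, and Adgre5 (8.64 against 4.46 to 4.996). In experiment 2, untreated Ddit3 (316 against 43.1 to 51.6) and Ptgs2 (4.93 against 3.17 to 3.33) were high, and untreated Mcm2 (9.55 against 23.9 to 27.4) and Rrm1 in acceptors (14.2 against 22.9 to 25.1) low.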

How the results depend on the processing

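Acceptors at 60 min against untreated cells gave 527 called genes with the replicate block, 9 without it, 169 when only these groups were fitted (129 shared with the 527) and 917 with the untreated libraries kept apart. DESeq2 size factors gave 526, no filter 438, Rn45s left out 529 and DESeq2 699 (517 shared). Leaving out an experiment gave 113 to 391. Against 0 min the count was 0, 20 with DESeq2, and 0 to 1 with an experiment left out (Spty2d1 without experiment 2, Nfe2l2 without experiment 4). Against 30 min it was 0, and 1 when only these groups were fitted (Thbs1). From 60 to 150 min it was 3, 0 without the block, 6 when only these groups were fitted, 9 with DESeq2, and 0 to 2 with an experiment left out. Donors against acceptors gave 882, 55 without the block, 3 when only these groups were fitted, 1173 with DESeq2, and 332 to 588 with an experiment left out. The interaction gave 0, and 1 with DESeq2.

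Of 99 named genes called between acceptors and untreated cells, none changed sign under the 11 alternatives, 7 kept their call in all of them and 21 in all that had the block; 90 lost it without the block, 54 in the fit of these groups alone, and 61, 30, 62 and 42 without experiments 1 to 4. Changes of sign were seen in genes that were not called: Acp5 (0.056 without experiment 2 and 0.53 without 4, range -0.40 to 0.53), Flcn (-0.045 without 2, range to 0.24) and Slc13a3 (0.0050 without 2, range from -0.41). The causes were not tested. The autophagy genes Atg9a, Nbr1, Wipi1 and Wipi2 lost their calls with each experiment left out in turn. So did Actb, Cldn11, Cmklr1, Fbn2, Map2, Ppt1, Rrm1, Sesn1 and Sox10. Each left-out fit held fewer experiments, and the fit of 2 groups fewer units, than the main fit. The part of this in the lost calls was not tested.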
